A study of Mesocricetus auratus with 8 samples.

Results

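The integrin and talin linkage of the costamere was examined in the hearts of 8 female golden hamsters (Mesocricetus auratus). Its members were the 10 genes Itga7, Itgb1, Tln1, Tln2, Vcl, Ilk, Lims1, Parva, Ptk2 and Flnc. Each was taken as the row of that name among the 20360 genes of the count table, and all 10 were found, each in a single row. The series describes 2 kinds of animal, those with loss of heterozygosity (LOH) at Myh6, the gene of alpha cardiac myosin heavy chain, and wild-type (WT) animals. All were sampled at 25 weeks of age, before dilated cardiomyopathy set in. Each animal goes by a code in the labels, from M5F5, M5F7, M5F12 and M5F16 to M5F19, M5F22, M5F55 and M5F56, with heart as its tissue. Genotype, heart chamber and batch are assigned to none of them. Genotypes could therefore not be compared, and each library stands for itself. No row of the table carries the name Myh6 or Myh7. Of 4676 identifiers beginning with LOC only 543 were given a symbol, so either gene may be present without its name. The targeted gene was therefore not used to check the series description.

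The costamere is the place where the Z-disc of a muscle cell is fastened through the cell membrane to the surrounding basement membrane. Laminin outside the cell is bound by integrin, a pair of one alpha and one beta chain. Talin grips the tail of the beta chain and binds actin, and vinculin is recruited to talin that is under tension. A second link runs through integrin-linked kinase (ILK), which works with a PINCH protein and a parvin. Filamin C crosslinks actin at the membrane and at the Z-disc. In mice and people, loss of several of these proteins weakens heart or skeletal muscle, which is why they are watched in cardiomyopathy.

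Library totals ran from 13608500 to 15255764 counts, a ratio of 1.12, and no pair of libraries agreed within sampling noise, with a chi-square per gene of 11.2 to 46.0 over the 28 pairs, where counting error alone gives about 1. All 8 cardiomyocyte markers were measured, and their summed level was 74335 to 87919 CPM (counts scaled to library size). Among skeletal muscle markers, Myh1, Myh2, Myh4, Tnnt3, Tnnc2, Actn3 and Mylpf stayed at or below 0.683 CPM in every library. Ckm and Acta1, which heart muscle also makes, accounted for nearly all of that list's sum of 5552 to 10233 CPM.

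The spread of a gene was measured as the fold between its highest and lowest library, and again as the trimmed fold between the libraries next to those extremes. Counts were also set against equal abundance in all libraries with a chi-square test, Benjamini-Hochberg adjusted over the 10909 genes whose mean count reached 50. All 10 linkage genes passed that count filter. Of these, 9 differed among the libraries beyond counting error, where 86.4% of all tested genes did, and 4 (Flnc, Lims1, Tln2 and Itga7) also spanned at least 1.5-fold, where 42.2% did. Vcl lay at that limit, with 1.4993-fold. The 2-fold limit was passed by 2 of the 10, Flnc and Lims1, against 13.9% of all tested genes. By the trimmed fold 3 of the 10 spanned 1.5-fold, Flnc, Lims1 and Tln2, against 16.2%. The median fold of the 10 was 1.43, and that of all tested genes was 1.45. Flnc and Lims1 stood at the wide end of the set, and Parva and Itgb1 at the narrow end.

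**Figure D1:**
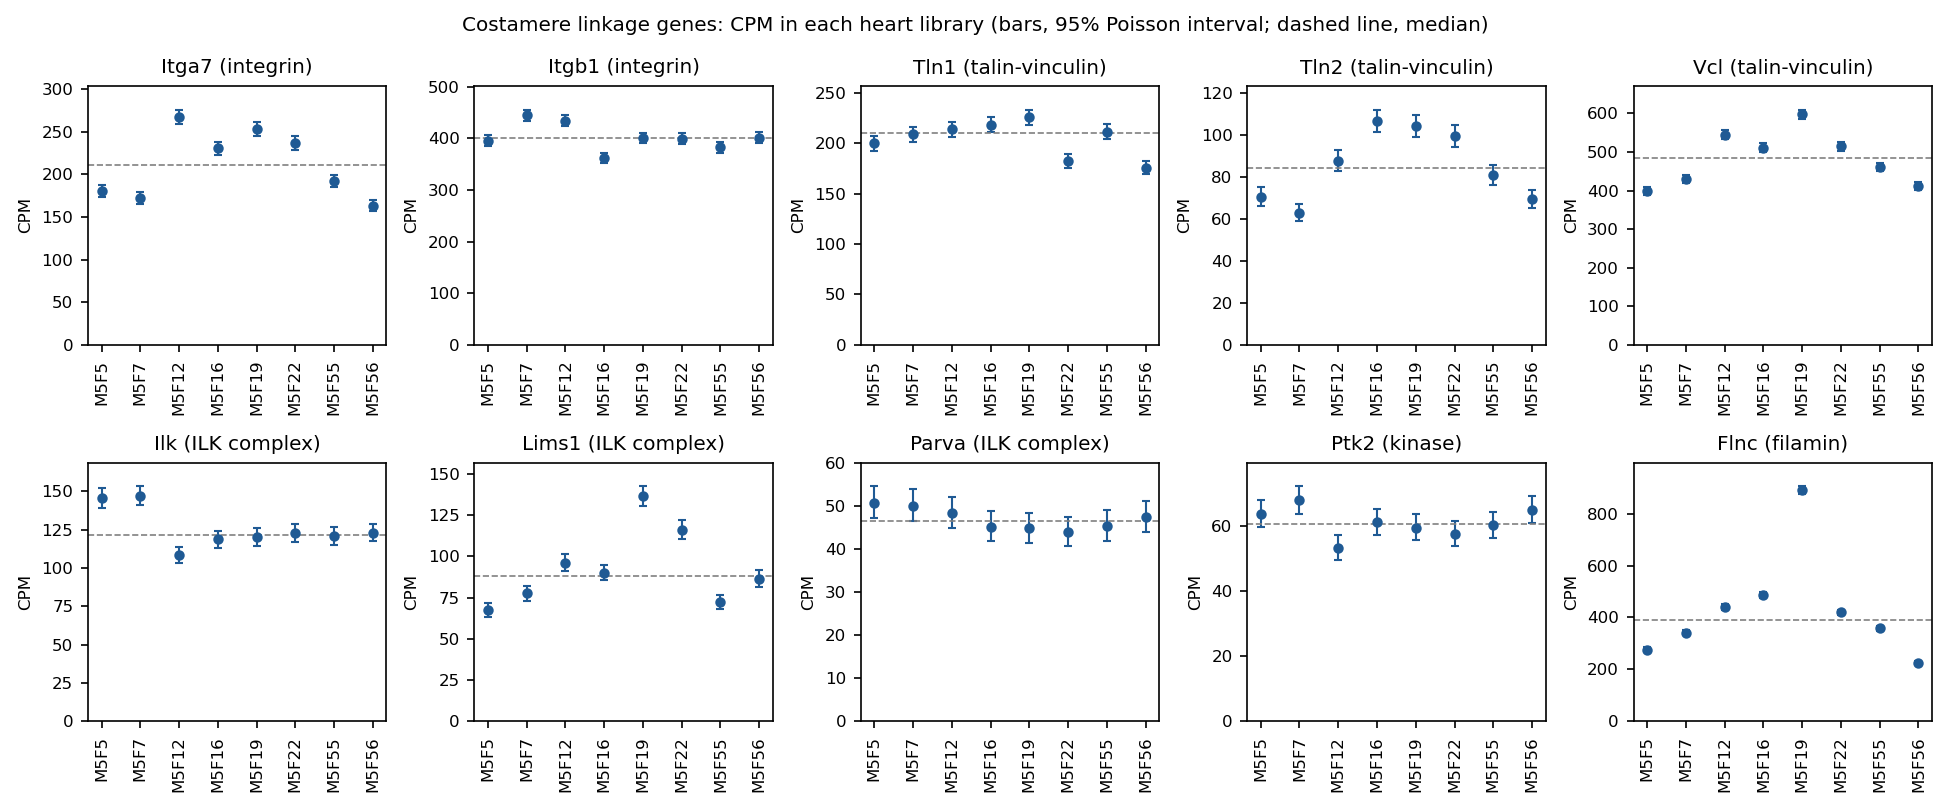
CPM (vertical axis, from 0) of the 10 linkage genes in each of the 8 heart libraries (horizontal axis). Points are single libraries, bars the 95% Poisson interval for counting error, and dashed lines the median of the 8. Flnc stood at 891 CPM in M5F19 and Parva stayed between 44.0 and 50.8 CPM.

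Between the integrin genes of the linkage, Itga7 spanned a wider range than Itgb1. Itga7 encodes integrin alpha 7, the main laminin-binding alpha chain of striated muscle. It was at 267.5 CPM in M5F12, 254 in M5F19, 237 in M5F22 and 231 in M5F16, and at 192 in M5F55, 180.3 in M5F5, 172 in M5F7 and 163 in M5F56. The 4 libraries above the median were thus separated from the 4 below it by a step of 38.4 CPM, or 36.8% of the whole range, and their counting intervals did not meet. The fold was 1.64, which 31.4% of tested genes reached or passed.

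Itgb1 encodes integrin beta 1, the partner of alpha 7 and of many other alpha chains in most cell types of the heart. It ran from 362 CPM in M5F16 to 445 CPM in M5F7, with a median of 399.6 and a fold of 1.23. Of tested genes, 85.7% had at least that fold. M5F5, M5F19, M5F22 and M5F56 lay within 395 to 401 CPM, and their counting intervals overlapped. Per count of Itgb1 in the same library, Itga7 had 0.638 counts in M5F16, 0.634 in M5F19, 0.617 in M5F12, 0.593 in M5F22, 0.503 in M5F55, 0.456 in M5F5, 0.407 in M5F56 and 0.387 in M5F7. This ratio needs no scaling between libraries. It ranked M5F12, M5F16, M5F19 and M5F22 highest, the same 4 libraries as Itga7 itself. Both rest on the same Itga7 counts, so the ratio is not separate support.

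Of the talin genes, Tln2 spanned a wider range than Tln1. Tln1 encodes talin 1, the talin of most cells, and Tln2 encodes talin 2, the form that prevails in mature striated muscle. Tln2 was at 107 CPM in M5F16, 104 in M5F19, 99.4 in M5F22, 87.6 in M5F12, 80.6 in M5F55, 70.5 in M5F5, 69.2 in M5F56 and 62.9 in M5F7. That is a 1.70-fold span, and 1.504-fold after trimming. The counting intervals of M5F16, M5F19 and M5F22 overlapped, and so did those of M5F12 and M5F55. Tln1 ran from 176 CPM in M5F56 to 226 CPM in M5F19, a fold of 1.28 around a median of 210.1, and M5F22 was its next lowest at 183 CPM.

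Tln2 made up 35.2% of the talin counts in M5F22 (exact 95% interval 33.8 to 36.7%) and 23.1% in M5F7 (21.8 to 24.5%), with a median of 28.7%. The intervals of these 2 libraries are far apart, and they cover counting error only. The share depends on the lengths of both transcripts, for which the sources used here give no value, so it does not say which talin is more abundant.

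Vcl encodes vinculin, the actin-binding protein that reinforces talin under load. It was at 598 CPM in M5F19, 545 in M5F12, 514 in M5F22, 511 in M5F16, 461 in M5F55, 431 in M5F7, 411 in M5F56 and 399 in M5F5. The 4 highest libraries were again M5F12, M5F16, M5F19 and M5F22. Per Tln1 count, Vcl had 2.82 counts in M5F22 and 1.99 in M5F5. M5F22, at the top of this ratio, had one of the lowest levels of Tln1, and its Vcl was close to that of M5F16.

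Flnc had the widest span of the 10. Its product, filamin C, is the muscle filamin, and damaged filamin C is replaced in muscle under strain. It was at 891 CPM in M5F19 (95% Poisson interval 876 to 906), 487 in M5F16, 440.2 in M5F12, 419.5 in M5F22, 359 in M5F55, 341 in M5F7, 276 in M5F5 and 226 in M5F56 (218 to 234). The highest library had 3.94 times the lowest, a fold that 1.15% of tested genes reached or passed. M5F19 stood apart, and without it the fold was 2.15. Between the second-highest and second-lowest libraries the fold was 1.76.

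Its paralogue Flna did not share this order. Flna, a filamin of non-muscle cells, ran from 49.3 CPM in M5F16 to 79.1 CPM in M5F7. Per Flna count Flnc had 13.2 counts in M5F19, 9.88 in M5F16, 7.47 in M5F12, 7.44 in M5F22, 5.08 in M5F55, 4.53 in M5F56, 4.41 in M5F5 and 4.31 in M5F7.

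**Figure D2:**
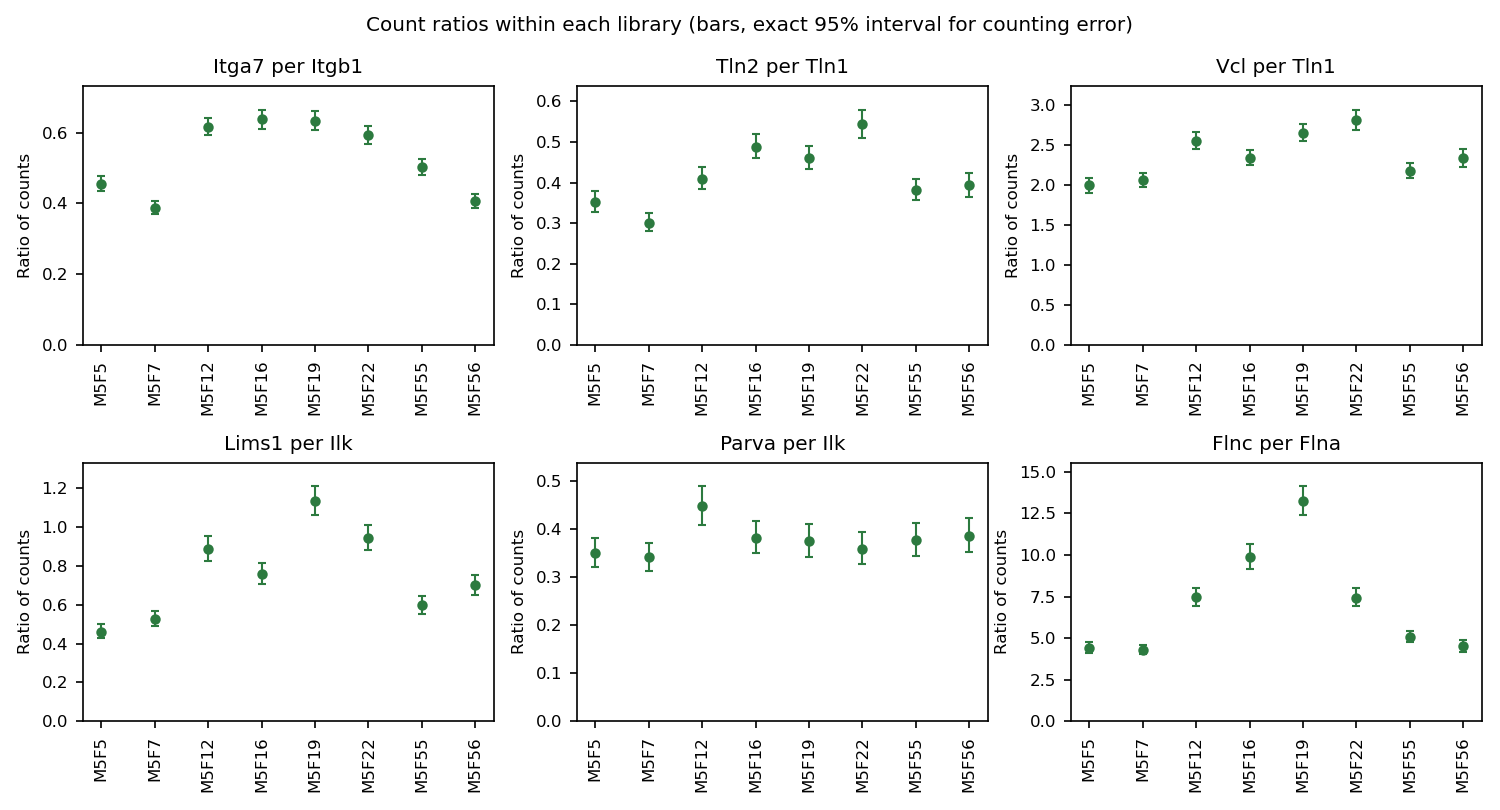
Count ratios within each of the 8 libraries (vertical axes, from 0), with exact 95% intervals for counting error. Shown are Itga7 per Itgb1, Tln2 per Tln1, Vcl per Tln1, Lims1 per Ilk, Parva per Ilk and Flnc per Flna. All of the ratios shown had M5F5 and M5F7 among their 3 lowest libraries, and several share Ilk or Tln1 as divisor. Of ratios not shown, Lims1 per Lims2 was also lowest in M5F7 (0.258) and M5F5 (0.270). Others went the other way. Parva per Parvb was above its median of 0.375 in M5F5 (0.403) and M5F7 (0.386), and Ptk2 per Ptk2b was highest in M5F7 (38.1). Parva per Ilk stayed within 0.341 to 0.447.

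The genes of the ILK complex had different orders of libraries. Ilk encodes the pseudokinase at its centre, Lims1 encodes PINCH1, its LIM-domain adaptor, and Parva encodes alpha-parvin, which binds actin. Lims1 was at 136 CPM in M5F19, 116 in M5F22, 96.0 in M5F12, 90.1 in M5F16, 86.5 in M5F56, 77.6 in M5F7, 72.3 in M5F55 and 67.3 in M5F5. That is a fold of 2.03, and 1.73 without M5F19. From M5F12 down, the counting interval of each library overlapped that of the next, so the order of these neighbours was not resolved.

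Ilk was at 147 CPM in M5F7 and 146 in M5F5, against 108 to 123 CPM in the other 6, and its fold was 1.36. M5F5 and M5F7 were also the highest libraries of Parva, and they were among the 3 lowest of Lims1. Lims1 had 1.14 counts per Ilk count in M5F19, 0.945 in M5F22, 0.886 in M5F12, 0.759 in M5F16, 0.702 in M5F56, 0.599 in M5F55, 0.527 in M5F7 and 0.462 in M5F5, a 2.46-fold span. Parva ran from 44.0 CPM in M5F22 to 50.8 CPM in M5F5, and its chi-square test did not pass the threshold (Benjamini-Hochberg adjusted p = 0.0611). It was the only one of the 10 not to pass, and it passed with plain total counts, with cardiomyocyte scaling and without M5F12 or M5F56. Its fold of 1.15 was reached or passed by 96.1% of tested genes.

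Lims2 and Parvb, the paralogues that can take the places of Lims1 and Parva in this complex, were also measured. Lims2, which encodes PINCH2, ran from 165 CPM in M5F56 to 300.4 CPM in M5F7, a fold of 1.82. In M5F7 Lims1 was 20.5% of the counts of both PINCH genes, and in M5F19 it was 41.6%. Parvb, the gene of beta-parvin, ran from 112 to 139 CPM. Rsu1, whose product binds PINCH1, ran from 30.3 to 34.8 CPM and did not pass the chi-square threshold. The sources used here do not say how reads shared by such related genes were assigned.

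Ptk2 encodes focal adhesion kinase, which signals from clustered integrins. It ran from 53.3 CPM in M5F12 to 67.9 CPM in M5F7, with a median of 60.7 and a fold of 1.27. Neighbouring libraries in this order had overlapping counting intervals, so only the ends of the order were resolved. Ptk2b, its paralogue PYK2, had a median of 2.73 CPM, lay under the count filter, and was highest in M5F12 at 7.56 CPM.

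**Figure D3:**
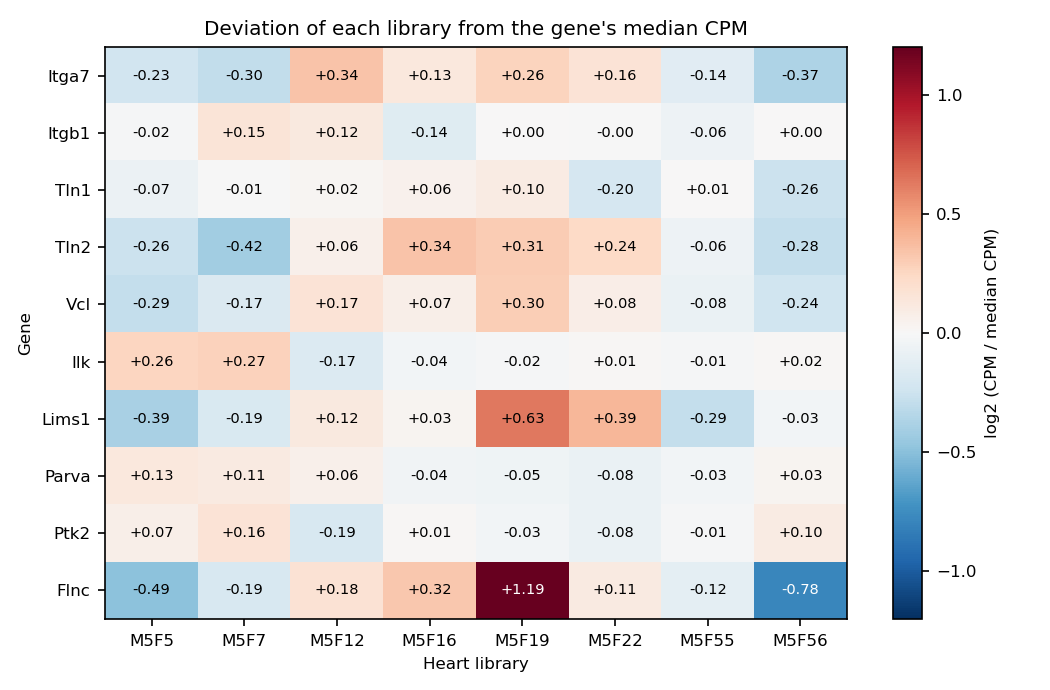
Deviation of each library from the median CPM of the gene, as log2 of the ratio, for the 10 linkage genes (rows) in the 8 libraries (columns). The deviations of Flnc ran from 1.19 in M5F19 to -0.78 in M5F56, while those of Itgb1, Parva and Ptk2 stayed within -0.19 to 0.16.

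The same 4 libraries, M5F12, M5F16, M5F19 and M5F22, held the 4 highest values of Itga7, Tln2, Vcl, Lims1 and Flnc, that is of 5 of the 10 linkage genes. For Itga7, Vcl and Flnc the counting intervals of these 4 stood clear of the other 4, while for Tln2 and Lims1 the lowest of the 4 overlapped the next library. Over all tested genes this set of 4 was highest for 10.5%, and for 7.19% it was lowest. It was the most common of the 70 possible sets of 4, which had a median of 100.5 genes, against 1143 for this one. The share was thus larger among the 10 linkage genes than among all tested genes. The set was picked because it recurred among these genes, so that difference was not tested. The labels do not say what the 4 animals share, and no mean or test was taken over them.

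With DESeq2 size factors, plain total counts or a prior count of 5 the number was again 5. It was also 5 when counts were scaled to the summed cardiomyocyte markers. These are the values from which the set was picked, and the count was not repeated with single libraries left out. For Itgb1, Ilk, Parva, Tln1 and Ptk2 the 4 highest libraries were other sets.

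The summed endothelial markers were lower in each of these 4 libraries than in each of the other 4. The 8 endothelial markers summed to 952 CPM in M5F12, 930.2 in M5F22, 913 in M5F16 and 889 in M5F19, and to 1128 in M5F56, 1235 in M5F55, 1298 in M5F5 and 1461 in M5F7. Of the 8, 6 (Cdh5, Kdr, Tek, Tie1, Egfl7 and Esam) had their 4 lowest values in M5F12, M5F16, M5F19 and M5F22, whereas Pecam1 was second highest in M5F12, at 209 CPM. Of the 8 smooth muscle and pericyte markers 3 did, Pdgfrb, Rgs5 and Cspg4. Others of that list went the other way, with Acta2 (572 CPM) and Cnn1 (9.08 CPM) highest in M5F19 and Tagln (67.9 CPM) highest in M5F12. The list summed to 1693 CPM in M5F7 and next to 1408 CPM in M5F19, and was lowest in M5F16 at 1195 CPM. The cardiomyocyte sum did not follow the set, with M5F12 lowest at 74335 CPM and M5F22 highest at 87919 CPM. Of the 8 cardiomyocyte markers 2, Atp2a2 and Ryr2, had their 4 highest values in this set, where 10.5% of all tested genes did. None of the 8 had its 4 lowest values there. In whole tissue, fewer cells of a type and less RNA per cell cannot be told apart, and the part of the cell mix in these results was not tested.

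Markers of blood-borne and stromal cells gave other orders. The 8 macrophage markers summed to 69.9 CPM in M5F5 and 134 CPM in M5F12. Of 5 platelet markers, 4 had a row, and their sum was 35.3 CPM in M5F12 and 12.01 to 15.3 CPM elsewhere. Most of that sum was Ppbp, at 28.9 CPM in M5F12 and 9.65 to 12.3 CPM elsewhere. It was the only 1 of the 4 to pass the count filter. Platelets are known to hold talin 1 and vinculin in abundance. In M5F12 Vcl was at 545 CPM, below M5F19 alone, and Tln1 was at 214 CPM, below M5F19 and M5F16. The part of platelets in these levels was not tested. The 8 fibroblast markers summed to 1220 to 1491 CPM, lowest in M5F55 and highest in M5F7. None of the measured markers on these lists was at 0 in all libraries.

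**Figure D4:**
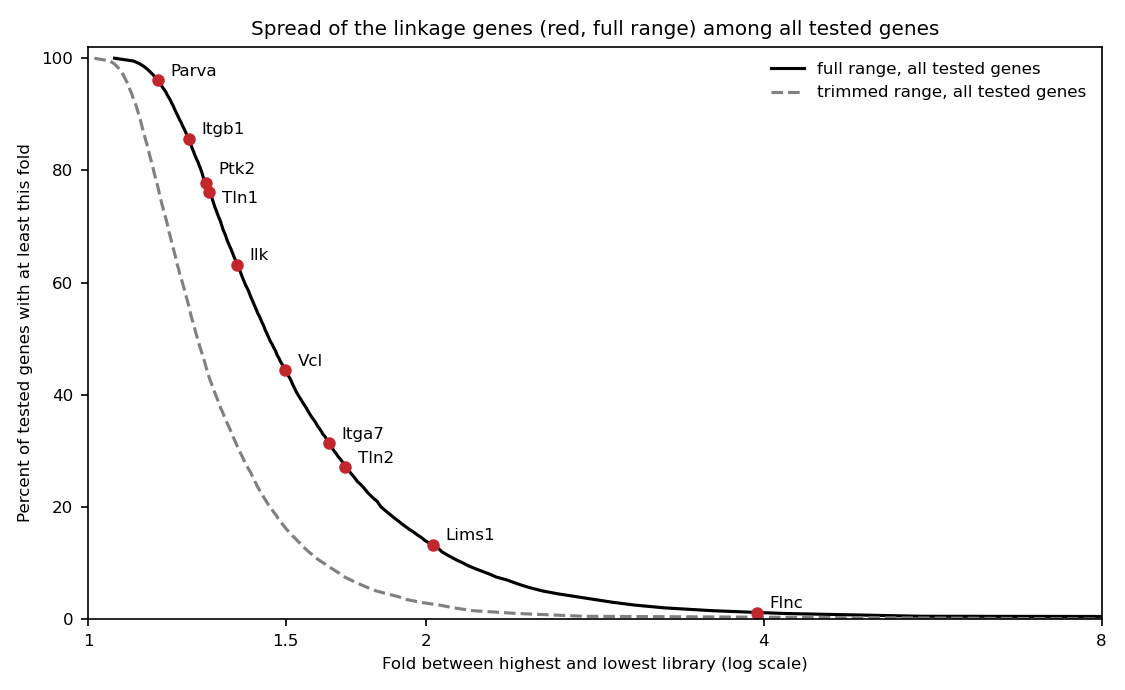
Percent of the 10909 tested genes (vertical axis) that span at least a given fold between their highest and lowest library (horizontal axis, log scale). The black curve is the full range, the dashed grey curve the trimmed range, and red points are the linkage genes at their full range, from Parva at 1.15-fold to Flnc at 3.94-fold.

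Across the 8 animals 10 pairs of measures were related to each other, of genes whose products bind or work side by side and of a gene with a marker list. Ilk fell into separate clusters, so its relations with Parva and with Lims1 were given no coefficient. Of the other 8, only Vcl with Flnc passed the threshold. Its Pearson r was 0.92 (exact two-sided permutation p = 0.000496, adjusted p = 0.00397) and its Spearman rho was 0.90 (exact permutation p = 0.00456, adjusted p = 0.0365). Without M5F5 and M5F19, the libraries farthest from the Vcl median, r was 0.88. Without M5F19 alone r was 0.90, with an adjusted p of 0.0571 by the exact permutation test. Over the alternatives tried that adjusted p ran from 0.00397 to 0.0571. Both genes had the same 4 highest libraries, so whatever separates those animals enters r, and 4 libraries are too few for a coefficient within either side.

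For the integrin pair Itga7 and Itgb1, r was -0.065 and rho -0.071, with exact permutation p-values of 0.880 and 0.882. Without M5F12 and M5F56 its r was -0.46. Itgb1 had r = -0.046 with Tln1 (exact permutation p = 0.915; rho = -0.19, p = 0.665; r = 0.14 without M5F7 and M5F16) and r = 0.012 with Ptk2 (exact permutation p = 0.979; rho = 0.12, p = 0.793; r = -0.68 without the same libraries). Each of these changed sign under at least 1 alternative. Levels of the integrin beta chain and of its partners thus showed no relation that these 8 animals could resolve.

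Tln1 had r = 0.54 with Vcl (exact permutation p = 0.175; rho = 0.67, p = 0.0831) and r = 0.37 with Tln2 (exact permutation p = 0.366; rho = 0.64, p = 0.0962). Without M5F22 and M5F56, in which Tln1 was lowest, r was 0.93 with Vcl and 0.82 with Tln2. With the endothelial markers Tln1 had r = -0.15 (exact permutation p = 0.716; rho = -0.52, p = 0.197; r = -0.80 without M5F22 and M5F56). Itgb1 with the fibroblast markers had r = 0.58 (exact permutation p = 0.137; rho = 0.76, p = 0.0368; r = 0.52 without M5F7 and M5F16). The adjusted p-values of these 7 relations were 0.467 or more for r and 0.147 or more for rho.

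The genes most like Flnc, Lims1 and Tln2, the 3 members with the widest trimmed fold, were sought among 10087 other tested genes with a symbol by Pearson's r of log2 CPM over the 8 libraries. For Flnc they were Aldh1l1 (r = 0.98), which ran from 26.1 CPM in M5F56 to 42.3 CPM in M5F19, and Copb1 (r = 0.97). Copb1 ran only from 77.6 CPM in M5F5 to 89.2 CPM in M5F19. For Lims1 they were Dnmt3a (r = 0.98), from 21.0 CPM in M5F5 to 33.5 CPM in M5F19, and Dcaf6 (r = 0.98). Dcaf6 ran from 202 CPM in M5F5 to 257 CPM in M5F19. For Tln2 they were Nbr1 (r = 0.99), from 52.0 CPM in M5F7 to 78.5 CPM in M5F19, and Lig3 (r = 0.98). Lig3 ran from 43.4 CPM in M5F7 to 55.4 CPM in M5F19. These genes are the best of many, and with 8 points such values are a description only. A high r gives a like order and proportion of values, not a span as wide.

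Other genes of integrin adhesion, 40 in all, were examined beside the linkage genes, and 38 passed the count filter. Of these 37 differed among the libraries beyond counting error, where 86.4% of all tested genes did. At least 1.5-fold was spanned by 23 of the 38, against 42.2% of all tested genes. At least 2-fold was spanned by 4, against 13.9%, and 1.5-fold after trimming by 5, against 16.2%, so neither of these counts was above the share over all genes. Their median fold was 1.58, against 1.45 for all tested genes. The highest value lay in M5F19 for 13 of the 38 and in M5F7 for 12, where these libraries were highest for 16.9% and 17.7% of all tested genes. The lowest lay in M5F56 for 11, against 11.2% of all tested genes. For Itga9, Tns1 and Lama2 the 4 highest libraries were M5F12, M5F16, M5F19 and M5F22. For Itga6, Tgfb1i1, Sorbs3 and Lama4 these were the 4 lowest. Over all tested genes this set was highest for 10.5% and lowest for 7.19%, and the 3 and 4 of the 38 lay near those shares.

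Xirp1, which encodes an actin-binding protein of the intercalated disc and of strained muscle, was at 264 CPM in M5F19 and 111 to 170 CPM in the other 7, a fold of 2.38. Actn1, a non-muscle alpha-actinin, was at 11.5 CPM in M5F12 and 4.63 to 7.03 CPM elsewhere, a fold of 2.47. Actn2, the Z-disc alpha-actinin and the highest of the actin linkers, ran from 1368 to 2093 CPM.

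Of 8 other integrin chains, Itgb5 and Itgb3 passed 2-fold. Itgb5 ran from 12.95 CPM in M5F7 to 31.5 CPM in M5F22, a fold of 2.43, and Itgb3, the beta chain of the platelet integrin among others, from 2.73 CPM in M5F22 to 5.96 CPM in M5F12. Itgav, the partner of both, ran only from 147 to 211 CPM. Of the laminin chains, Lama2, the alpha chain of the main muscle laminin and a ligand of alpha 7, was lowest in M5F5 at 311 CPM and highest in M5F19 at 536 CPM. Lamb2, the highest of the laminin genes, spanned 1.22-fold.

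Of the 5 tested activators and partners of integrin, 2 spanned at least 1.5-fold, Itgb1bp2 and Itgb1bp1, and the median fold of the 5 was 1.197. Fermt2 encodes kindlin-2, which binds the beta tail beside talin, and it spanned 1.14-fold, from 257 to 292 CPM. Cd151, a tetraspanin that associates with laminin-binding integrins, had the highest median of this role at 268 CPM and lay at that median fold. Itgb1bp2 encodes melusin, a muscle protein that binds the beta 1 tail, and it ran from 66.8 CPM in M5F12 to 103 CPM in M5F19, a fold of 1.55. Itgb1bp1, whose product also binds the beta 1 tail, ran from 15.7 CPM in M5F19 to 24.0 CPM in M5F7, a fold of 1.53. Of the signalling genes, Bcar1, a docking protein of focal adhesions, spanned 1.92-fold and Pxn, the gene of paxillin, 1.76-fold.

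**Figure D5:**
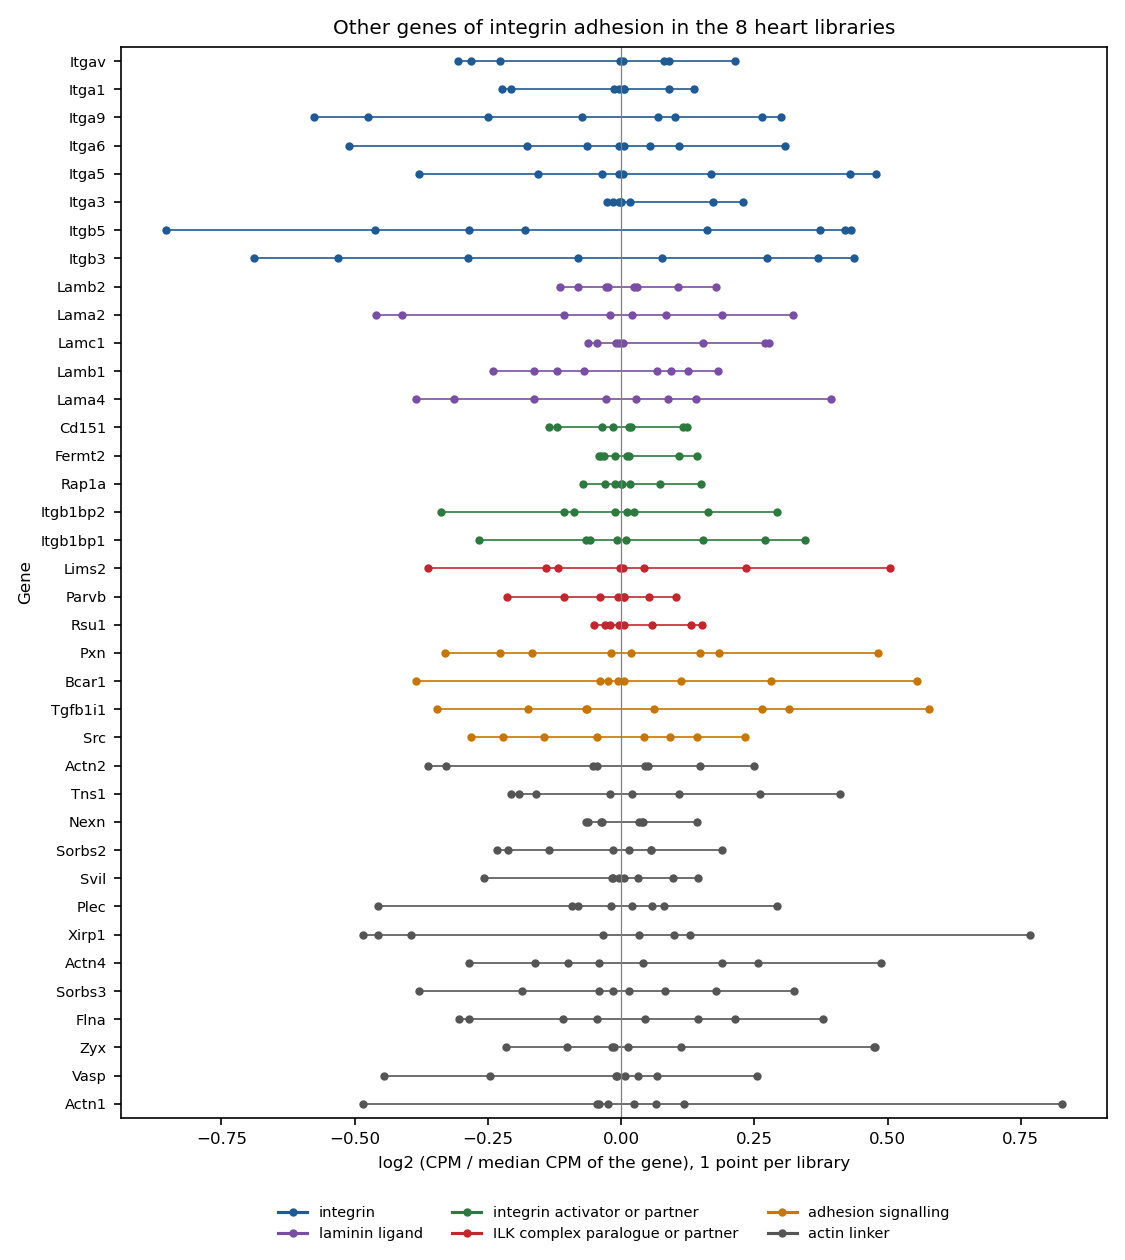
Log2 ratio of CPM to the median of the gene (horizontal axis) for the 38 other genes of integrin adhesion that passed the count filter (rows, coloured by role). Each point is 1 library and each line joins the lowest to the highest. Actn1 spanned 2.47-fold and Fermt2 1.14-fold.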

How the data were processed

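PolyA RNA from the hearts of 8 female golden hamsters was sequenced, with 1 library for each. The authors' deposited values are whole-number counts per gene and library. Tools named by the submitters' processing notes, without roles, are RSEM, HISAT2 (2.0.4) and Bowtie2 (2.2.5). The sources used here do not give the genome build, the annotation or any rounding of RSEM estimates. All 8 columns matched a label.

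The linkage genes were taken by name. Of 4676 identifiers beginning with LOC, 543, among them Plec, Myh1, Myh2 and Myh4, were given the symbol found under their gene number in RefSeq's gene table (assembly BCM_Maur_2.0). Counts were scaled by TMM, the trimmed mean of M-values, in edgeR 4.0.16 under R 4.3.3, and given as CPM, with a prior count of 0.5 on the log2 scale. Intervals, exact Poisson for levels and Clopper-Pearson for shares, were set at 95% and cover counting error only, not the spread between animals. No label mentions molecular identifiers, so whether copied reads were counted more than once is not known. The counting error may therefore be larger than these intervals. The chi-square calculation was tested on simulated data.

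No coefficient was computed where the values of a measure fell into separate clusters, that is where a gap exceeded 0.5 of the range and left 2 or more libraries on each side. Permutation p-values enumerate all pairings, and were adjusted by Benjamini-Hochberg over the 8 relations computed, for r and rho separately. Alternatives were DESeq2 1.42.0 size factors, plain totals, other count filters, another prior count and each library left out. Scaling to the cardiomyocyte markers, and the set of 4 libraries with the highest values, were added after seeing the data.

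The members, the gene lists and the rule for genes named (all members, paralogues, the highest gene of each role and those past 2-fold, and the 2 genes most like 3 of the members) were chosen with earlier results of these data known. Some genes of the planned adhesion list are not reported here.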

Additional observations from a re-analysis of the deposited data

Results flagged for a closer look

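In 4 of 48 genes examined, the 10 linkage genes and the 38 others of integrin adhesion, 1 library lay far from the rest. The gap to the nearest library, divided by the whole range, then exceeded Dixon's 95% critical value for 8 samples, 0.526, a value that chance alone passes in about 1 group in 20. The share of all tested genes past that value was not computed, so 4 of 48 cannot be called unusual for these libraries. The animals carry no assigned genotype. For Flnc the gap divided by the range was 0.608, with M5F19 at 891 CPM and the next library at 487 CPM. Xirp1 had 0.616, also from M5F19, at 264 CPM against 170 CPM in the next. Actn1 had 0.651, with M5F12 at 11.5 CPM and the next at 7.03 CPM. For Svil, which encodes supervillin, a membrane-bound actin regulator, it was 0.564, with M5F56 lowest at 674 CPM and the next library at 796 CPM.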

How the results depend on the processing

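No paired analysis was possible because the labels give no groups. The number of linkage genes past 2-fold, 2, was 1 with plain total counts and 1 to 2 on leaving out single libraries, with Lims1 lost without M5F5 (1.89-fold) or M5F19 (1.73-fold). The 3 past 1.5-fold after trimming were 1 with cardiomyocyte scaling and 1 to 3 on leaving out single libraries, with 1 left without M5F5, M5F19 or M5F56. Other genes of integrin adhesion past 2-fold, 4, were 1 when the mean count had to reach 500, and those past 1.5-fold after trimming, 5, were 3 with that filter and 2 to 6 on leaving out libraries (2 without M5F12, 3 without M5F5 or M5F56). The number of relations past the threshold, 1, was 0 without M5F19, 1 on leaving out any other library, and 2 with cardiomyocyte scaling, where Ilk with Lims1 no longer fell into clusters. The sign of r changed for Itga7 with Itgb1, to 0.28 with cardiomyocyte scaling and -0.42 to 0.28 over libraries left out. For Itgb1 with Tln1 it changed to 0.0052 with plain totals, to 0.39 with cardiomyocyte scaling, and -0.18 to 0.020 over libraries left out. For Itgb1 with Ptk2 it changed to -0.030 with DESeq2 size factors and -0.57 to 0.57 over libraries left out, and for Tln1 with the endothelial markers r ran from -0.40 to 0.069. The causes were not tested.

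Mean counts of the linkage genes were 683 or more. At this depth the differences of Parva were not resolved, nor was the order of many neighbouring libraries for other genes, Ptk2, Lims1, Tln2 and Itgb1 among them.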

Other observations

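By the gap rule, 1 of the 10 linkage genes fell into separate clusters of libraries. The share of all tested genes that do so was not computed, so this count cannot be called unusual. Ilk was at 147 CPM in M5F7 and 146 CPM in M5F5, and then at 123 in M5F56, 123 in M5F22, 121 in M5F55, 120.2 in M5F19, 119 in M5F16 and 108 in M5F12, so that the widest gap was 22.4 CPM, or 57.7% of the range. Flnc had a wider gap, 60.8% of its range, but with a single library above it. With cardiomyocyte scaling, chosen after seeing the data, Ilk showed no such gap, and its r with Lims1 was -0.85 (exact permutation p = 0.00890, adjusted p = 0.0445). Its r with Lims1 was -0.70 with plain total counts (exact permutation p = 0.0565, adjusted p = 0.198), -0.32 without M5F5 and -0.47 without M5F7.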
